A study of Homo sapiens with 4 samples.

Results

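The genes described here encode the machinery that shortens, decaps, digests and inspects messenger RNA. They are 56 named factors of mRNA decay and surveillance, each found by its symbol in the deposited rate table or, where the rate table lacked it, by its GENCODE 29 symbol. All 56 were present among the 60279 human genes counted, and all are annotated as protein-coding. By role they fall into 6 groups: 11 CCR4-NOT genes, 7 other deadenylases and adaptors, 8 genes of decapping and 5′-3′ decay, 9 genes of nonsense-mediated decay, 15 genes of the exosome and its nuclear adaptors, and 6 sequence-specific decay genes.

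The libraries measured newly made RNA by transient transcriptome sequencing (TT-seq): 4-thiouridine enters RNA as it is made, and the thiol-bearing RNA is then biotinylated and pulled down. K562, an established human line from chronic myeloid leukemia with erythroid features and the BCR-ABL fusion, was given 1 mM 4-thiouridine, with 2 libraries made after 5 min of labelling and 2 after 15 min. All 4 libraries carry the treatment label UT, and no agent other than 4-thiouridine is named for any of them. Fly S2 RNA (15 µg) was added to 150 µg of K562 RNA before shearing, so that human reads can be scaled to fly reads. No unlabelled library was among the samples, and a single cell line was used. The labels do not say that the libraries of a time came from separate cultures. Each p-value therefore sets the difference between times against spread among the libraries at hand, and that spread may be technical.

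Bulk mRNA decay in human cells usually begins at the poly(A) tail. PAN2-PAN3 and CCR4-NOT shorten the tail, after which DCP2 removes the cap and XRN1 degrades the body from its 5′ end, or the RNA exosome degrades it from its 3′ end. BTG and TOB proteins and the zinc-finger proteins of the ZFP36 family bring CCR4-NOT to messages, the latter through AU-rich elements in 3′ untranslated regions, while UPF and SMG proteins recognise and destroy messages with premature stop codons. TT-seq reports the labelled RNA made from these genes, not the amount or activity of their proteins.

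The libraries held between 4339981 and 5051370 human reads and between 308978 and 897018 fly reads. Human reads per fly read were 4.84 and 5.84 at 5 min and 15.8 and 15.3 at 15 min, a ratio of 2.92 (range over the 4 pairings of libraries 2.62 to 3.28; exact two-sided permutation p = 0.333, the smallest that 2 against 2 libraries can give). Erythroid markers were read in 9 of 9 cases and summed to 1150 to 1276 counts per 1000000 human reads (CPM) at 5 min and to 752 to 784 CPM at 15 min. T cell, B cell, monocyte and fibroblast lists each had a defining gene at 0 reads (LCK, MS4A1, CD163 and LUM) and summed to at most 23.0 CPM in any library. The 6 epithelial genes, of which KRT5 was at 0, summed to 438 to 476 CPM at 5 min and 316 to 340 CPM at 15 min. The marker sums were not tested for a part in the results.

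The 3′ untranslated regions of the factors carry the letters that some of the factors themselves are known to bind, so sites from genes named below are shown first. Among the 53 members with an annotated 3′ untranslated region of at least 50 bases, the AU-rich pentamer ATTTA occurred in 44 (83.0%, against 69.9% of 11202 protein-coding genes tested). The longer TTATTTAT, which contains ATTTA and lies within the AU-rich element that ZFP36 proteins are known to bind, occurred in 14 (26.4% against 15.5%). The Pumilio letters TGTANATA occurred in 19 (35.9% against 27.1%). The median 3′ untranslated region was 1353 bases in members and 1093 bases in protein-coding genes, and the shares are not corrected for length. All 3 motifs were searched on the transcript strand only. In the sites below, taken from GENCODE 29 transcripts of GRCh38 and written 5′ to 3′ as DNA, capitals mark the motif.
ZFP36: aatgggccctTTATTTATgacgacttta
ZFP36L1: aactgttggaTTATTTATtttagaaatt
ZFP36L2: actatttaacTTATTTATtatcttgtga
TOB2: tcgcaagtccTTATTTATatgtgaggct
BTG1: aatagatttcTTATTTATctgaaggtat
XRN1: agaatggctcTTATTTATgtgtgtttta
UPF1: gcagggactcTTATTTATtcccattgct
PUM2: tttatagagaTGTATATAgaattatagt
CNOT1: tttgaacttgTGTAAATAcatgaaagag

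Each of the 3 ZFP36-family genes thus holds the AU-rich letters in its own 3′ untranslated region, with 2 copies of TTATTTAT in ZFP36. TOB1 and BTG2, which are described with them below, hold 4 and 2 ATTTA pentamers and no TTATTTAT. PUM2, whose protein reads the Pumilio letters, holds 2 such sites. A match shows only that the letters are there. Across the members, the 15 min to 5 min fold had a Spearman coefficient of 0.05 with ATTTA sites per kb of 3′ untranslated region (-0.11 across protein-coding genes).

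Promoters were read from RefSeq (GRCh38.p14) as the 250 bases before the start, and 50 of the 56 members were matched. GC boxes (GGGCGG, either strand) were present in 35 of 50, against 42.3% of 27305 promoters in that table, and CCAAT (either strand) in 21 of 50, against 33.0%. TATAAA occurred in 3 (BTG1, EXOSC8 and RC3H1), against 11.1%. The full CRE letters TGACGTCA and the CArG box had no match among the 50 (1.77% and 1.14% of all promoters). The median GC content was 63.6% for members and 58% for the whole table. The whole table was not limited to protein-coding or tested genes, so it is not a matched set for these members. The promoters of ZFP36 (19:39406597-39406846, plus strand), BTG2 (1:203305269-203305518, plus strand) and CNOT11 (2:101252636-101252885, plus strand) are given as examples from opposite ends of the range of folds. Capitals mark GC boxes and CCAAT.
ZFP36: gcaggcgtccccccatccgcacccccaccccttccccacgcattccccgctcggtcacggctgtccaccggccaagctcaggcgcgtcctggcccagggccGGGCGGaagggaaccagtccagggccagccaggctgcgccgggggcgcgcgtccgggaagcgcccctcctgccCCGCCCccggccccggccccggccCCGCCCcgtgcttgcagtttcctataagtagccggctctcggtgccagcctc
BTG2: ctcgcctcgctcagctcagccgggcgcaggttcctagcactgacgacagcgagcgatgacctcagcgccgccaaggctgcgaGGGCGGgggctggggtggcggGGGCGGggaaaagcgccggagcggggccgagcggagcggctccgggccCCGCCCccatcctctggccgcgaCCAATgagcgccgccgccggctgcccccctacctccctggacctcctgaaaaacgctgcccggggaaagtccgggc
CNOT11: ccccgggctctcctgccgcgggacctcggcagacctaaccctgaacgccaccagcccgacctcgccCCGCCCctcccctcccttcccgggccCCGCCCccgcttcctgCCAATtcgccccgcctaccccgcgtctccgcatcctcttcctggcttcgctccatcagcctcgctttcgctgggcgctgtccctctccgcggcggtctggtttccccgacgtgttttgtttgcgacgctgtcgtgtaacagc

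The 3 windows have the same kind of letters, with 3 GC boxes in ZFP36, 3 GC boxes and a CCAAT in BTG2, and 2 GC boxes and a CCAAT in CNOT11. Other genes with high folds did not all share them. The windows of TOB1 (38.4% GC), SMG9 and ZFP36L1 held 0 GC boxes, and that of EXOSC2 held 2.

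Labelled RNA of every factor rose between 5 and 15 min when the libraries were scaled to fly reads. All 56 passed the filter on low counts and all 56 rose (edgeR quasi-likelihood test, highest Benjamini-Hochberg adjusted p 2.9e-06), as did 98.4% of the 17322 human genes tested. Both 15 min libraries were above both 5 min libraries for 56 of 56 (99.0% of genes tested). Summed over the members, reads per 1000 fly reads were 33.2 and 39.6 at 5 min and 109 and 106 at 15 min, a 2.95-fold rise (pairings 2.67 to 3.28). The median member rose 2.97-fold (interquartile range 2.67 to 3.53), beside 3.20-fold for all genes tested and 2.96-fold for the 11547 protein-coding ones.

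A gene whose labelled RNA grew in proportion to label time would rise 3-fold, since 15 min is 3 times 5 min. Against that ratio, 8 members lay above it (11.3% of all genes tested did) and 2 lay below it (8.99% did), while 46 passed in neither direction. Among protein-coding genes tested the shares were 7.75% above and 12.8% below. Above were ZFP36, TOB1, BTG2, SMG8, ZFP36L2, EXOSC2, SMG9 and ZFP36L1. Below were CNOT1 and CNOT11. All 4 pairings of libraries were above 3-fold for 16 members (36.6% of genes tested) and below it for 16 (23.8%). These calls rest on the fly totals and on 4 libraries. Without either 15 min library, edgeR called 0 members in either direction, and 3 members (without replicate 1) or 6 (without replicate 2) had an unadjusted p under 0.05. Without 5 min replicate 1 it called 9 above and 17 below, and without 5 min replicate 2 it called 19 above and 3 below. The 2 libraries of 5 min differ in the same sense as a whole, with 4.84 human reads per fly read in replicate 1 and 5.84 in replicate 2. Of the members, 54 of 56 had the higher spike-scaled level in replicate 2. That count follows the difference of the whole libraries and is not particular to the members.

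**Figure D1:**
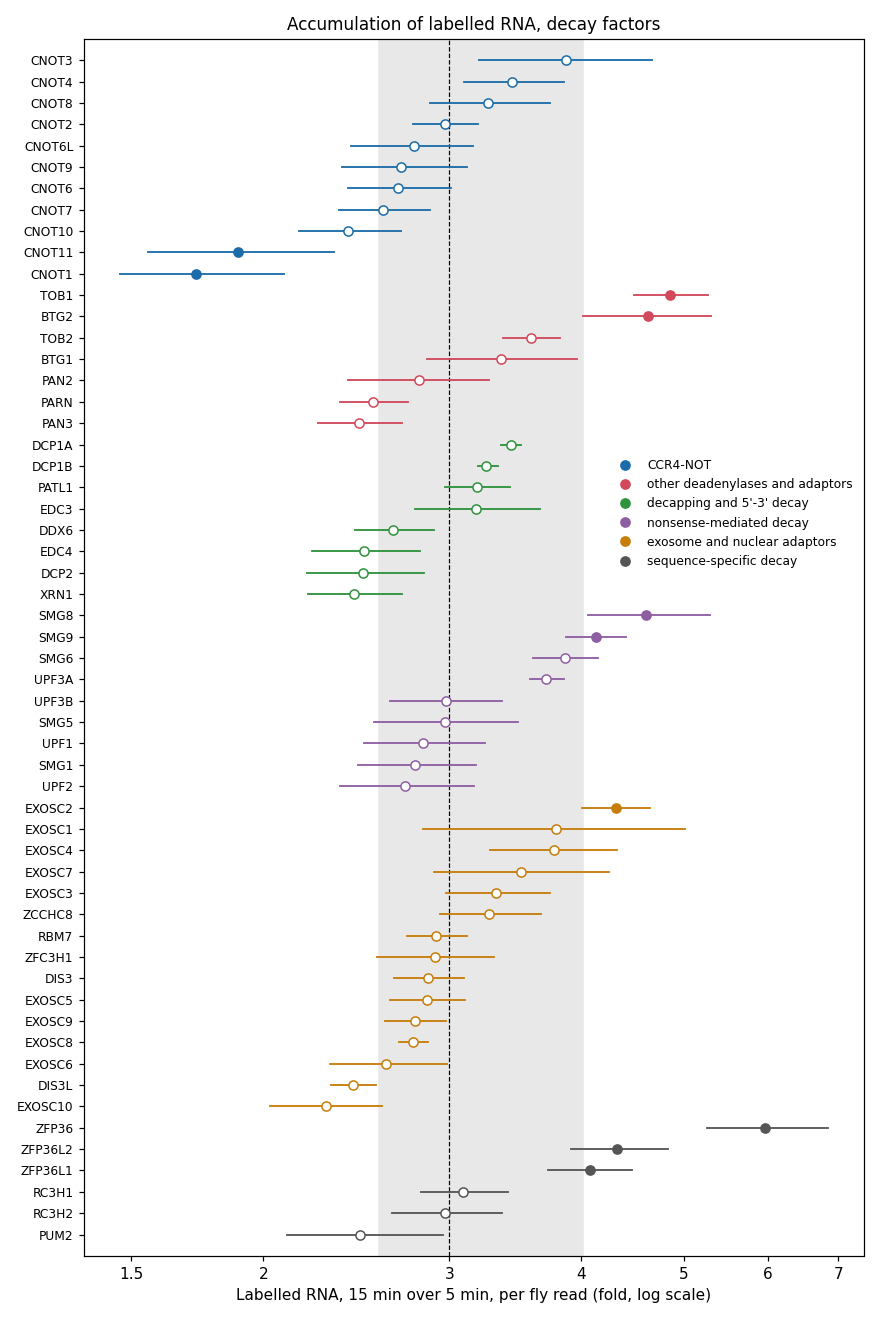
Spike-scaled fold of labelled RNA from 5 to 15 min (x axis, log scale) for each of the 56 factors, grouped by role; bars span the 4 pairings of libraries, filled points passed the edgeR test against 3-fold (dashed line), and the grey band is the interquartile range of all tested genes. ZFP36 is at the right end with 5.96-fold and CNOT1 at the left end with 1.73-fold, and the bars of 24 members cross the dashed line.

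CCR4-NOT, the main cytoplasmic deadenylase complex, was the group with the lowest median fold of the 6, at 2.70. Of its 11 genes, 0 passed above the 3-fold ratio (1 at an unadjusted p under 0.05, and 0 by DESeq2) and 2 passed below it. CNOT1, the scaffold on which the other subunits assemble, lies at 16:58519951-58629886 (minus strand, hg38). Its level was 170 and 232 at 5 min and 340 and 356 at 15 min, in reads per kb of exonic length per 1000000 fly reads, a unit called the spike-scaled level from here on. The times did not overlap, yet the rise was 1.73-fold (pairings 1.46 to 2.09), the smallest among the members. Its log2 departure from 3-fold was -0.80 ± 0.17 (SE; edgeR adjusted p = 0.00012).

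CNOT11, which joins CNOT10 in a module at the scaffold's N-terminal end, lies at 2:101252802-101270316 (plus strand). It had spike-scaled levels of 118 and 160 at 5 min and 249 and 276 at 15 min. It rose 1.89-fold (pairings 1.56 to 2.33), a departure of -0.67 ± 0.17 on the log2 scale (edgeR adjusted p = 0.00218). CNOT10 had the next smallest rise of the group, 2.40-fold, and did not pass (-0.32, edgeR adjusted p = 0.165). The genes with the highest folds here were CNOT3, a regulatory subunit, at 3.87-fold (43.7 and 52.8 at 5 min, 204 and 169 at 15 min) and CNOT4, a ubiquitin ligase, at 3.44-fold (80.8 and 98.6, then 305 and 311). Neither passed against the 3-fold ratio (edgeR adjusted p = 0.112 and 0.428), although all 4 pairings were above it for both (3.20 to 4.66 and 3.10 to 3.85).

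The catalytic genes of CCR4-NOT stood between these ends. CNOT6 and CNOT6L, the paralogous EEP-type nucleases, rose 2.68-fold and 2.78-fold. CNOT7 and CNOT8, the paralogous DEDD-type nucleases, rose 2.60-fold and 3.26-fold. CNOT2, the partner of CNOT3 in the NOT module, rose 2.97-fold, from 83.7 and 93.1 to 268 and 258, and CNOT9 rose 2.70-fold. None of these 6 passed against the 3-fold ratio.

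Among the other deadenylases and adaptors, the adaptors had the higher folds. TOB1 (17:50862223-50867978, minus strand), an antiproliferative protein that links CCR4-NOT to poly(A)-binding protein, had levels of 141 and 163 at 5 min and 742 and 733 at 15 min. Both 15 min libraries were far above both 5 min ones, a 4.86-fold rise (pairings 4.49 to 5.28) with a log2 departure of 0.70 ± 0.17 (edgeR adjusted p = 0.000831). BTG2 (1:203305491-203309602, plus strand), a growth-arrest gene induced by p53, had 51.8 and 58.2 at 5 min and 274 and 234 at 15 min. The 4.62-fold rise (pairings 4.01 to 5.30) exceeded 3-fold by 0.62 ± 0.19 on the log2 scale (edgeR adjusted p = 0.00913).

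Their paralogues moved in the same direction by less. TOB2 rose 3.58-fold (58.9 and 66.2, then 223 and 225) and BTG1 rose 3.35-fold (62.9 and 78.7, then 225 and 249). Neither of these 2 passed against the 3-fold ratio (edgeR adjusted p = 0.301 and 0.541). The difference between paralogues was not tested. The deadenylases proper were lower: PAN3, the regulatory subunit of PAN2-PAN3, at 2.46-fold (54.1 and 62.3, then 140 and 146), PARN, a poly(A)-specific ribonuclease, at 2.54-fold (85.2 and 93.4, then 221 and 233), and PAN2, the catalytic subunit, at 2.81-fold. Of these 3 deadenylases, 0 passed against 3-fold by edgeR (0 at an unadjusted p under 0.05).

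Decapping and 5′-3′ decay genes had a median fold of 2.92, and 0 of 8 passed against 3-fold in either direction (0 at an unadjusted p under 0.05 by edgeR, and 0 by DESeq2). DCP1A, the activator of the decapping enzyme, rose 3.43-fold, from 56.8 and 58.1 to 195 and 199, with the pairings between 3.36 and 3.51. DCP1B, its paralogue, was the least read of all members, with 37 and 32 reads at 5 min and 42 and 41 at 15 min, and rose 3.25-fold with a wide log2 SE of 0.28. DCP2, the catalytic decapping enzyme, rose 2.49-fold from 149 and 183 to 401 and 424. XRN1, the 5′-3′ exonuclease, rose 2.44-fold from 44.7 and 51.9 to 121 and 115.

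The decapping enhancers covered the same span. DDX6, an RNA helicase of P-bodies, rose 2.65-fold, from 195 and 229 to 560 and 565. PATL1, which bridges deadenylation and decapping, rose 3.19-fold, from 156 and 174 to 535 and 515. EDC3 and EDC4, scaffolds of decapping, rose 3.18-fold and 2.49-fold. The exons of EDC3 share 701 bases with CLK3, and no source used here says whether counting used strand, so reads of the pair may not be fully separated.

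In nonsense-mediated decay, the SMG8-SMG9 pair had the highest folds and the UPF core lay near 3-fold. SMG8 (17:59209400-59215247, plus strand) had levels of 61.8 and 79.9 at 5 min and 327 and 324 at 15 min. It rose 4.60-fold (pairings 4.06 to 5.29), a log2 departure of 0.62 ± 0.17 (edgeR adjusted p = 0.00456). SMG9 (19:43727992-43754990, minus strand), which binds SMG8 and with it restrains the SMG1 kinase, had 46.4 and 51.0 at 5 min and 197 and 205 at 15 min. The 4.12-fold rise (pairings 3.87 to 4.41) gave a departure of 0.46 ± 0.17 (edgeR adjusted p = 0.0371), which was not past the threshold with no filter on low counts (0.0578), with TMM factors on the fly counts (0.0772) or with a replicate block (0.121). For both genes the 15 min libraries lay clear of the 5 min libraries.

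SMG1 itself, the kinase that phosphorylates UPF1, rose 2.78-fold, from 59.7 and 72.1 to 190 and 177. UPF1, the helicase at the centre of the pathway, rose 2.83-fold, from 102 and 122 to 331 and 304, and UPF2, its activator, rose 2.72-fold, from 82.7 and 102 to 261 and 240. SMG6, the endonuclease, rose 3.86-fold, from 18.9 and 17.6 to 72.8 and 68.1, without passing (edgeR adjusted p = 0.145). SMG5 rose 2.97-fold, and the paralogues UPF3A and UPF3B rose 3.71-fold and 2.98-fold. None of the 7 genes other than SMG8 and SMG9 passed against the 3-fold ratio by edgeR.

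The exosome group had a median fold of 2.90, with 1 of 15 genes above 3-fold and 0 below it (1 below at an unadjusted p under 0.05 by edgeR, and 0 by DESeq2). The gene above was EXOSC2 (9:130693721-130704894, plus strand), a cap subunit of the barrel, with levels of 130 and 146 at 5 min and 603 and 585 at 15 min. It rose 4.31-fold (pairings 4.01 to 4.64), a log2 departure of 0.52 ± 0.17 (edgeR adjusted p = 0.0148; 0.0744 with a replicate block). The other cap subunits EXOSC1 and EXOSC3 rose 3.79-fold and 3.32-fold. EXOSC1 showed the widest pairing range of the group, 2.83 to 5.01, with 57.3 and 74.7 at 5 min and 287 and 212 at 15 min.

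The ring subunits EXOSC4 to EXOSC9 rose between 2.61-fold (EXOSC6) and 3.77-fold (EXOSC4). EXOSC9, the member of the group with the highest deposited rate, rose 2.78-fold, from 161 and 181 to 480 and 473. EXOSC10, the nuclear 3′-5′ nuclease, had the smallest rise at 2.29-fold, from 108 and 124 to 281 and 251 (edgeR adjusted p = 0.0805). DIS3L, the cytoplasmic nuclease, rose 2.43-fold from 44.3 and 47.4 to 110 and 113, and DIS3, the nuclear one, rose 2.86-fold. The 9 core barrel genes had a median fold of 3.32. RBM7 and ZCCHC8, RNA-binding and scaffold parts of the nuclear exosome targeting complex, rose 2.91-fold and 3.27-fold, and ZFC3H1, of the poly(A) exosome targeting connection, rose 2.90-fold.

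Sequence-specific decay genes had the highest median fold of the 6 groups, 3.58, with 3 of 6 above the 3-fold ratio. ZFP36 (tristetraprolin; 19:39406813-39409412, plus strand), an immediate-early gene whose protein destabilises AU-rich messages, had levels of 69.3 and 89.7 at 5 min and 475 and 472 at 15 min. The 2 times were far apart, and the 5.96-fold rise (pairings 5.26 to 6.84) was the highest of the members and stood at the 96.0th percentile of genes tested. Its log2 departure was 0.99 ± 0.18 (edgeR adjusted p = 5.63e-06). ZFP36L2 (2:43222402-43226609, minus strand) had 329 and 403 at 5 min and 1589 and 1574 at 15 min. It rose 4.33-fold (pairings 3.91 to 4.83), a departure of 0.53 ± 0.17 (edgeR adjusted p = 0.0152).

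ZFP36L1 (14:68787660-68796253, minus strand) had 103 and 114 at 5 min and 460 and 423 at 15 min, and rose 4.07-fold (pairings 3.72 to 4.46; departure 0.44 ± 0.17, edgeR adjusted p = 0.0433). All 3 members of the ZFP36 family were above the ratio in this fit. ZFP36L1 was not past the threshold with TMM factors on the fly counts, with no filter on low counts or with a replicate block (edgeR adjusted p = 0.0902, 0.0668 and 0.142), nor ZFP36L2 with the block (0.0862). The remaining sequence-specific genes were not. RC3H1 and RC3H2 (roquin-1 and roquin-2), which bind stem-loops in 3′ untranslated regions, rose 3.09-fold and 2.97-fold, the latter from 68.3 and 83.8 to 230 and 222 (edgeR adjusted p = 0.965). PUM2, a Pumilio protein, rose 2.47-fold, from 160 and 214 to 451 and 472 (edgeR adjusted p = 0.235). Grouped after their values were seen, the 7 ZFP36, BTG and TOB genes had a median fold of 4.33 and the other 49 members 2.86.

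**Figure D2:**
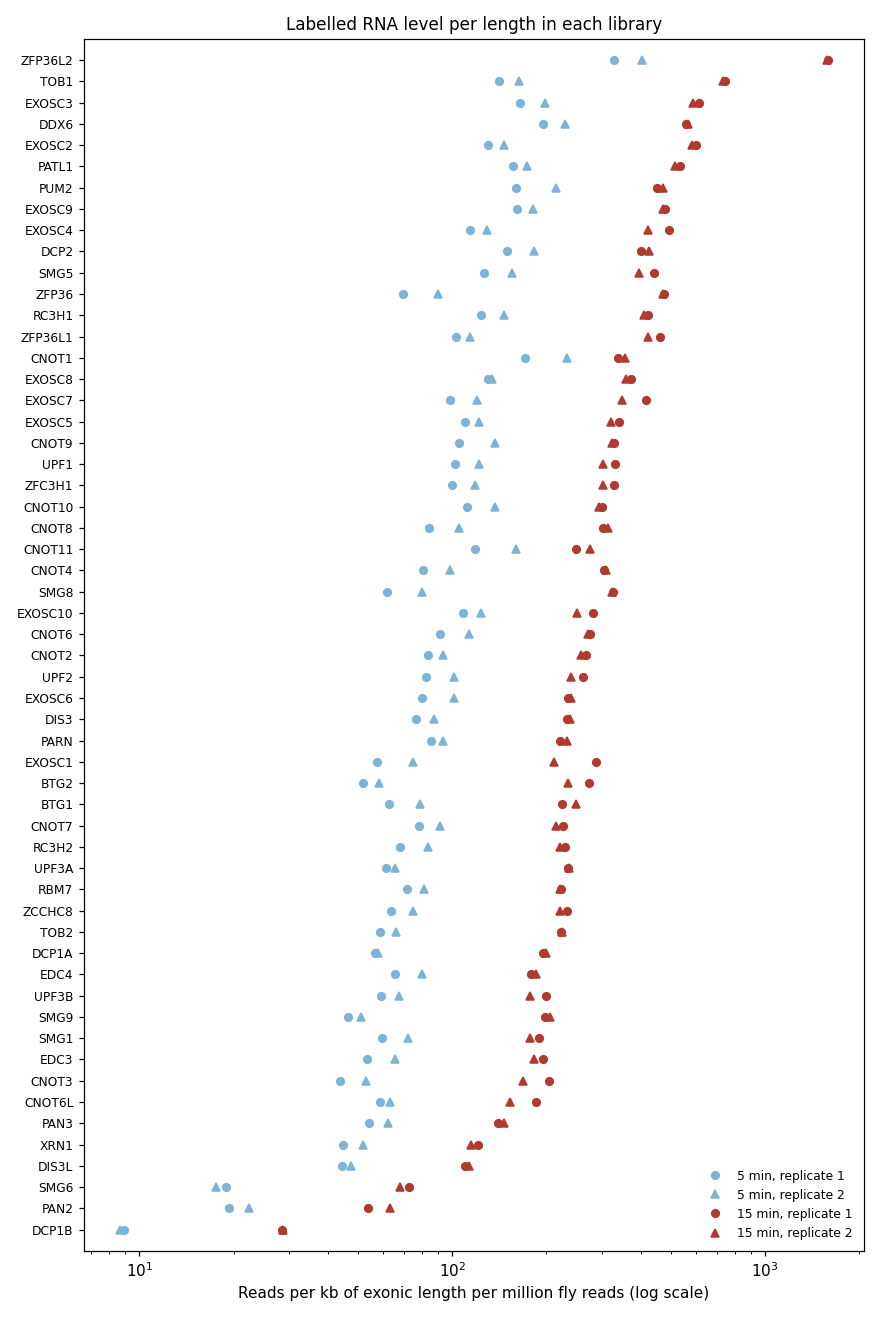
Spike-scaled level of the 56 factors in each of the 4 libraries (reads per kb of exonic length per 1000000 fly reads, log axis), 1 point per library. ZFP36L2 lies highest, with 329 to 1589, and DCP1B lowest, with 8.64 to 28.8, and the 15 min points lie to the high side of the 5 min points for each gene.

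The share of labelled RNA that each gene took was compared next, with TMM-scaled human totals in place of fly reads, so that the spike-in plays no part. Of the 56 members, 12 had a higher share at 15 min (16.8% of genes tested did) and 19 a lower one (21.3% did), and 25 passed in neither direction. Among protein-coding genes, the class of all 56, the shares were 13.7% higher and 30.5% lower. The median log2 change in share was -0.08 for the members, 0.03 for all genes tested and -0.08 for protein-coding genes. CPM of the times did not overlap for 25 members that were higher at 15 min (43.1% of genes tested) and for 19 that were lower (25.7%). With human totals and no TMM factors, which moved the median of all genes from 0.03 to 0.13, the members split into 18 higher and 10 lower. With DESeq2 they split into 8 and 9.

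The 8 genes above the 3-fold ratio also took a higher share, in the same 4 libraries. ZFP36 went from 29.8 ± 1.47 CPM (SD, n = 2) at 5 min to 61.1 ± 1.28 CPM at 15 min, a log2 change of 0.93 ± 0.12 (SE; edgeR adjusted p = 3.01e-14). TOB1 went from 71.9 ± 1.96 to 119 ± 2.00 CPM, a change of 0.63 ± 0.08 (edgeR adjusted p = 5.61e-13). BTG2 went from 28.5 ± 1.43 to 44.9 ± 3.96 CPM, a change of 0.56 ± 0.13 (edgeR adjusted p = 6.91e-05). In these 3 genes the gap between the times was larger than the spread within a time.

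The SMG8-SMG9 pair and EXOSC2 showed the same direction. SMG8 went from 49.6 ± 2.40 to 78.5 ± 1.52 CPM (log2 change 0.56 ± 0.10, edgeR adjusted p = 1.13e-07) and SMG9 from 72.6 ± 4.82 to 102 ± 5.24 CPM (0.39 ± 0.08, edgeR adjusted p = 2.74e-05). EXOSC2 went from 110 ± 5.49 to 162 ± 0.67 CPM (0.46 ± 0.07, edgeR adjusted p = 6.78e-09). ZFP36L2, at 253 ± 2.52 and then 375 ± 6.80 CPM, changed by 0.47 ± 0.06 (edgeR adjusted p = 9.52e-13), and ZFP36L1, at 105 ± 6.64 and then 146 ± 4.99 CPM, by 0.37 ± 0.07 (edgeR adjusted p = 5.07e-06). The other 4 genes with a higher share were CNOT3, EXOSC1, SMG6 and UPF3A, at 0.24 to 0.30 on the log2 scale.

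Lower shares were led by 2 subunits of CCR4-NOT. CNOT1 fell from 407 ± 35.3 to 243 ± 14.0 CPM, a log2 change of -0.85 ± 0.06 (edgeR adjusted p = 1e-40). CNOT11 fell from 72.2 ± 5.69 to 47.1 ± 4.67 CPM, a change of -0.73 ± 0.10 (edgeR adjusted p = 6.43e-12). In CCR4-NOT 6 of 11 genes fell in share and 1 rose. In decapping and 5′-3′ decay 4 of 8 fell (DCP2, EDC4, XRN1 and DDX6) and 0 rose (0 at an unadjusted p under 0.05 by edgeR, and 0 by DESeq2). Beside these small groups, 21.3% of all genes tested fell and 16.8% rose, and 30.5% and 13.7% of protein-coding ones. DCP2 changed by -0.33, XRN1 by -0.36 and DDX6 by -0.24 (edgeR adjusted p = 8.58e-07, 3.79e-05 and 0.000361).

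The other groups were mixed. Nonsense-mediated decay had 4 higher and 2 lower (UPF2 at -0.20 and SMG1 at -0.17), the exosome group had 2 higher and 4 lower (EXOSC10 at -0.45, DIS3L at -0.37, EXOSC6 at -0.26 and EXOSC9 at -0.17), and sequence-specific decay had 3 higher and 1 lower (PUM2 at -0.34). PAN3 and PARN fell in share by 0.35 and 0.31 on the log2 scale. Of the 31 calls, 16 held under every alternative processing tried: the 8 genes above the 3-fold ratio, and CNOT1, CNOT7, CNOT10, CNOT11, DCP2, EXOSC10, PUM2 and XRN1 among those that fell.

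**Figure D3:**
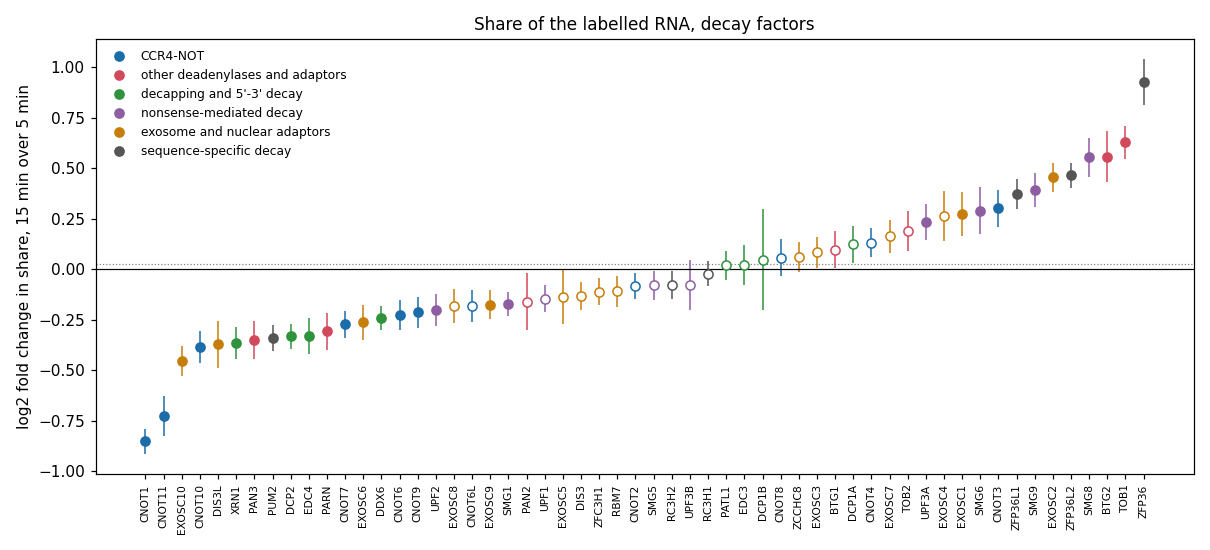
Change in share of labelled RNA from 5 to 15 min (y axis, log2, TMM-scaled) with its SE for the 56 factors (x axis, in order of the change, coloured by role); filled points passed the edgeR test and the dotted line is the median of all tested genes, 0.03. ZFP36 (0.93) and TOB1 (0.63) lie farthest right and CNOT1 (-0.85) and CNOT11 (-0.73) farthest left.

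Some of these counts could include reads of overlapping genes. Exons of 28 members share bases with another gene's exons, 24 of them with a gene on the opposite strand, and 18 share at least 200 bases. For CNOT1 the largest overlap is with SETD6 on the opposite strand (1086 shared bases of 10852 exonic bases), and SETD6 had 265 and 273 reads at 5 min and 442 and 407 at 15 min beside 1657, 2027, 1175 and 1193 for CNOT1. The CNOT11 overlap, with TBC1D8, is 65 bases. TOB1 shares 281 bases with TOB1-AS1, which had at most 8 reads in a library. Larger overlaps touch other called genes. EXOSC10 shares 2196 of its 6003 exonic bases with AL109811.1 on the opposite strand (22 and 21 reads at 5 min, 56 and 55 at 15 min), EDC4 shares 1311 of 6173 with AC040162.3 on the same strand (9 and 13, then 27 and 23), and SMG8 shares 422 of 3752 with AC099850.2 on the same strand (0 reads in each of the 4 libraries). The part of overlaps in the folds was not tested.

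Levels per length differed far more between the factors than their folds did. The mean spike-scaled level over the 4 libraries was above 300 in 8 members, between 100 and 300 in 43 and below 100 in 5, with a median of 182. ZFP36L2 was highest at 974, followed by TOB1 at 445, EXOSC3 at 391 and DDX6 at 387. The order of the last 3 was not the same in the 4 libraries: at 5 min EXOSC3 and DDX6 were above TOB1, and at 15 min TOB1 was above both. At the other end were DCP1B at 18.7, PAN2 at 39.6, SMG6 at 44.3, DIS3L at 78.6 and XRN1 at 83.0.

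Paralogous pairs were often unequal. The level of DCP1A was 6.79 times that of DCP1B (6.34 to 6.92 over the 4 libraries), and TOB1 stood 3.10 times above TOB2 (2.39 to 3.32). DIS3 was 2.02 times DIS3L, RC3H1 was 1.83 times RC3H2, and CNOT6 was 1.63 times CNOT6L (1.48 to 1.78). ZFP36L1 was at 0.28 times the level of ZFP36L2. BTG1 with BTG2 (1.00) and ZFP36 with ZFP36L1 (1.01) had near-equal mean levels. BTG1 was above BTG2 in both 5 min libraries and in 1 of the 15 min libraries, and ZFP36 was below ZFP36L1 in both 5 min libraries and above it in both 15 min libraries. UPF3A was at 1.19 times UPF3B, and CNOT7 at 0.75 times CNOT8. The order of CNOT7 and CNOT8 depends on the length used. Per kb of whole locus in place of exonic length, CNOT7 was at 76.1 and CNOT8 at 41.2. The deposited rate gave other ratios for some pairs: 1.09 for CNOT7 over CNOT8, the reverse order, 18.4 for DCP1A over DCP1B, 5.60 for DIS3 over DIS3L and 0.66 for ZFP36 over ZFP36L1.

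The deposited synthesis rate is 1 value per gene, with no replicate error and no stated unit, so ranks are given. Of the 52 members with a rate, 48 were above the median of the 11777 genes in the table. SMG8, EXOSC3, EXOSC5 and RBM7 had no rate listed. ZFP36L2 was highest of the members, at rank 187, then EXOSC9 at 729 and DDX6 at 753, and DCP1B was lowest, at rank 10435. The rate ordered the members much as the level per exonic kb did (n = 52, Pearson coefficient of log2 values 0.92, Spearman 0.84). The libraries behind the rate are not stated, and if they are these 4, the values share their reads. The spike-scaled fold had no such relation to the rate (Spearman 0.03, n = 52).

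**Figure D4:**
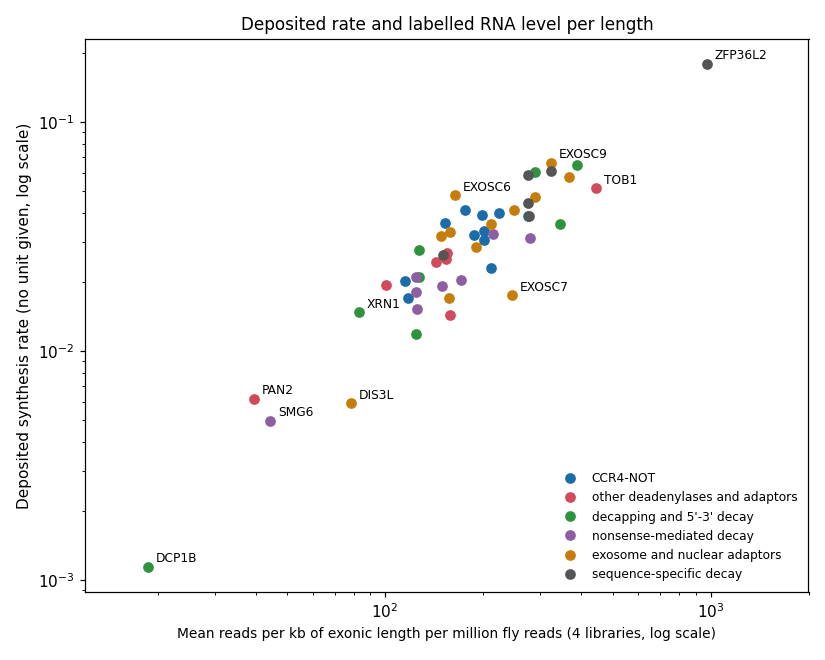
Deposited synthesis rate (y axis, log scale, no stated unit) against the mean spike-scaled level over 4 libraries (x axis, reads per kb of exonic length per 1000000 fly reads, log scale) for the 52 factors with a rate. ZFP36L2 is at the upper right and DCP1B at the lower left, and the Spearman coefficient is 0.84.

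The members with high folds came mostly from short genes. Median folds were 3.58 in the 21 members with a locus under 20 kb, 2.90 in the 17 with a locus of 20 to 60 kb, and 2.78 in the 18 with a longer locus. Of the 8 genes above the 3-fold ratio, 7 had a locus under 20 kb, from ZFP36 at 2.6 kb upwards, and SMG9 was in the middle class. Of the 2 below it, CNOT1 spans 110 kb and CNOT11 is under 20 kb. Among protein-coding genes tested, 573 of the 895 above the ratio had a locus under 20 kb, as did 522 of the 1483 below it. Protein-coding genes showed the same order with a smaller span, 3.20 (n = 4269), 2.87 (n = 3839) and 2.83 (n = 3439). Across the members the coefficient of fold with locus length was -0.52 (Pearson, log2 values) and -0.44 (Spearman, n = 56), and across protein-coding genes -0.15 and -0.17 (n = 11547). The points are genes of the same 4 libraries and not independent replicates.

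**Figure D5:**
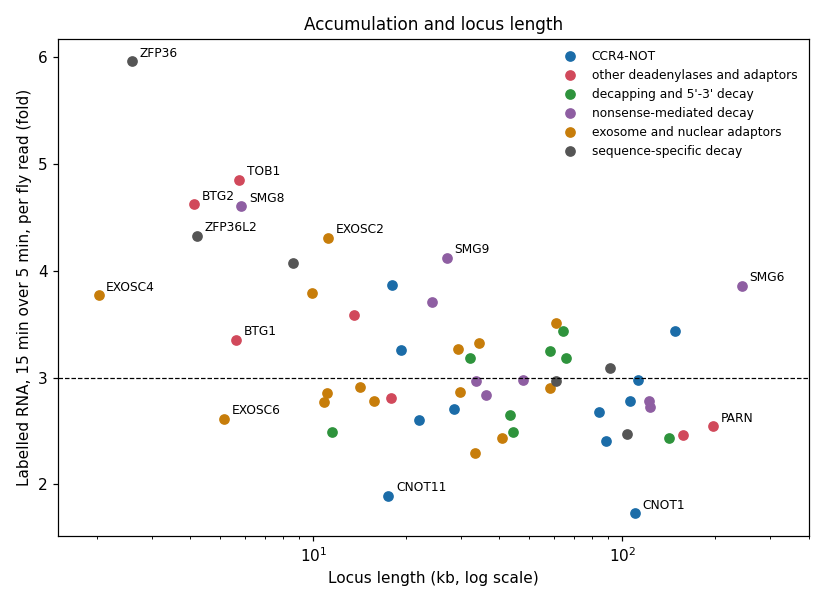
Spike-scaled fold from 5 to 15 min (y axis, dashed line at 3) against locus length (x axis, kb, log scale) for the 56 factors. ZFP36, at 2.6 kb and 5.96-fold, is at the upper left, CNOT1, at 110 kb and 1.73-fold, at the lower right, and the Spearman coefficient is -0.44.

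A further 59 genes of the same pathways, such as LSM proteins, exon junction complex and SKI complex subunits, terminal uridylyltransferases and RNA-binding proteins, gave the wider setting. All 59 rose on the spike-in scale with a median of 2.96-fold (98.4% of all genes tested rose). Of the 59, 2 (3.39%) were above the 3-fold ratio and 12 (20.3%) below it. The shares were 11.3% and 8.99% of all genes tested and 7.75% and 12.8% of protein-coding ones. A higher share was taken by 9 (15.3%) and a lower one by 21 (35.6%). Beside these stood 16.8% and 21.3% of all genes tested, and 13.7% and 30.5% of protein-coding ones. The 2 above were ZC3H12A (regnase-1), an endonuclease of inflammatory messages, at 4.91-fold (60.01 and 67.4, then 322 and 304; edgeR adjusted p = 0.0013), and PELO, a ribosome rescue factor, at 4.26-fold (60.5 and 65.2, then 264 and 271; edgeR adjusted p = 0.0246). The strongest below were RUVBL2, an ATPase that acts with the SMG1 kinase complex, at 1.60-fold (183 and 234, then 323 and 341; edgeR adjusted p = 5.5e-06), and PABPC1, the main cytoplasmic poly(A)-binding protein, at 1.54-fold (1023 and 1293, then 1690 and 1870; edgeR adjusted p = 6.51e-06). The other abundant genes were PABPC4 at 3.70-fold and HNRNPD at 2.68-fold, neither of which passed against 3-fold (edgeR adjusted p = 0.211 and 0.55).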

How the data were processed

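TT-seq was measured in 4 K562 libraries, 2 each for 5 min and 15 min of labelling. The deposited files hold raw read counts of human genes and of fly genes, and 1 synthesis rate per gene, deposited as a score with no unit. Per the submitters' processing notes the authors used bcl2fastq 2.17.1.14, STAR 2.7, featureCounts in Subread 2.0.1 and edgeR, with hg38 and dm6. The counting feature and strand were not given in the sources used here. The members and gene lists were chosen with earlier results of these data known.

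Counts were tested in edgeR 4.0.16 (robust quasi-likelihood, filterByExpr with a minimum count of 10, two-sided, Benjamini-Hochberg 0.05 over 17322 genes) with fly totals as library sizes, with fly totals times label minutes (against the 3-fold ratio), and with TMM-scaled human totals (shares). DESeq2 1.42.0, other filters and scalings, a replicate block and leaving out each library were alternatives. Spike-scaled levels divide counts by exonic length and fly totals, and intervals between pairings are ranges. Mean reads per member ran from 38 to 2038, with 55 of 56 at or above 100. Members named with full values were, in each role group with average log2 CPM of at least 3, the 2 largest and 2 smallest folds and the highest rate, and, of the 59 other decay genes, the 3 with the highest CPM and the 2 smallest p in each direction. Per-library values of TOB2, BTG1, PATL1, SMG6 and ZFP36L1 were added after values were seen. The code was tested on simulated data. Protein sequences were not used here. Groups of 2 were too small for a test for outlying libraries.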

Additional observations from a re-analysis of the deposited data

How the results depend on the processing

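On the spike-in scale the rise of the 56 members held under every alternative tried, where the gene was still tested. Against the 3-fold ratio, 0 of the 10 calls held under every alternative, but each kept its side of 3-fold in every fit (ZFP36 between 5.27 and 6.82, CNOT1 between 1.50 and 2.04), and the causes were not tested. Leaving out 1 library gave 0 to 19 members above and 0 to 17 below, and 40 to 3894 genes above and 33 to 3664 below over all genes tested (1951 and 1557 with all 4). The biological coefficient of variation (square root of the common dispersion in edgeR, without counting noise) was 9.77% on the spike-in scale and 4.08% for shares, which limits the former more.

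The labels do not say whether a replicate number marks a shared culture or day. Deviations of the replicate 1 libraries from their time means had a correlation of 0.0484, and 2 libraries per time cannot settle pairing. A replicate block changed the biological coefficient of variation from 4.08% to 3.47% for shares and from 9.77% to 10.4% on the spike-in scale. The block gave 4 members and 1158 genes above 3-fold and 924 genes below it. EXOSC2, SMG9, ZFP36L1 and ZFP36L2 were lost with it (edgeR adjusted p = 0.0744, 0.121, 0.142 and 0.0862). With TMM factors on the fly counts, SMG9 and ZFP36L1 were lost (0.0772 and 0.0902), as with no filter on low counts (0.0578 and 0.0668). DESeq2 gave 777 genes above 3-fold, and for shares 923 higher and 2370 lower over all genes (2915 and 3692 with edgeR) and 9 members lower. Human totals without TMM gave 10 members lower and 4253 and 2792 genes higher and lower. Leaving out 1 library gave 1859 to 2343 genes with a higher share. Requiring a mean of 50 reads left 10692 genes that rose, since fewer were tested. With whole locus length in place of exonic length, the Spearman coefficient of level and rate was 0.675.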
